A study of Mus musculus with 8 samples.

Results

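The complement system was followed in liver RNA as 32 genes, which encode its components, regulators and anaphylatoxin receptors. They were chosen by name and found in the deposited count table, which lists 54309 genes, through the identifiers that the authors' deposited table pairs with symbols; all 32 were found and all 32 passed the filter on low counts, among 15472 genes tested. The livers came from male C57BL/6 mice fed for 16 weeks a diet of fructose, palmitate and cholesterol, which provokes NASH, an inflamed and scarred fatty liver. Between weeks 8 and 16 the mice were injected in the peritoneum with IgG, a control antibody, or with an antibody against CD47 at 200 µg per mouse. CD47 on a cell's surface signals to SIRPα on macrophages and so holds back phagocytosis. With 7 to 8 animals in each treatment of the study, 4 libraries per treatment (IgG 1 to 4, antiCD47 1 to 4) were analysed here. Both treatments shared strain, sex and diet, and no group on a normal diet was analysed here. The study's question, per its title, concerned uptake of necroptotic hepatocytes by macrophages and scarring once CD47 signalling is blocked.

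Complement is a cascade of plasma proteins that tags particles for engulfment, calls leukocytes and punches pores in membranes. The classical arm starts when C1q binds antibody or other ligands, the lectin arm when mannose-binding lectins or collectins bind sugars, and the alternative arm amplifies C3 cleavage on surfaces. All arms meet at C3, and the terminal components C5 to C9 build the membrane attack complex. Hepatocytes secrete most of these proteins and raise several of them in the acute phase response, while C1q, properdin and the anaphylatoxin receptors come largely from myeloid cells.

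Libraries held 43691472 to 55477484 counts, and albumin mRNA (Alb) lay between 41020 and 52170 CPM in all 8, as liver should. CPM is a gene's count scaled to a common library size, adjusted with TMM, a factor computed per library. The 32 genes together took 1.31 to 1.61% of all counts in IgG libraries and 1.46 to 1.89% in antiCD47 libraries, ranges that overlap. Without C3, the shares were 0.928 to 1.05% and 0.956 to 1.02%. Nothing in the labels links a library to an animal, so p-values measure the spread between these libraries.

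In the antiCD47 livers 5 of the 32 genes rose and 0 fell (adjusted p under 0.05; two-sided quasi-likelihood test of edgeR, Benjamini-Hochberg adjustment over all genes tested). They were C3, the central component; Cfb, the factor B protease of the alternative arm; the mannose-binding lectin genes Mbl1 and Mbl2; and C5ar1, the receptor of the C5a fragment. Over all genes tested, 5.44% were called higher and 5.4% lower, against 15.6% and 0% of the complement genes. At an unadjusted p under 0.05, 17 of the 32 were higher and 1 was lower (Colec11), where 16.6% and 16.0% of all genes were. The median log2 fold change was 0.24 over the 32 genes and -0.01 over all genes tested, and 25 of the 32 had a value above 0 (78.1%, against 49.0% of all genes). The number called depended on the fit. DESeq2 called 12 of the 32 higher and 0 lower, where 1694 and 1452 of 26368 genes were. Those 26368 were all genes given a p-value, without the filter on low counts, which the 32 genes all passed. The DESeq2 share is therefore not over the same genes as the edgeR share. The authors' deposited table lists 11 of the 32 past an adjusted p of 0.05, all with a positive sign, and its share over all genes was not counted here. The number of the 32 called also moved together with the number of all genes called higher when a library was left out. No complement gene was called without IgG 4 or without antiCD47 3, where 2 and 17 of all genes were higher. There was 1 without IgG 3 (47 of all genes), and there were 2 without IgG 1 (91) or antiCD47 2 (368), 5 without antiCD47 4 (824) and 8 without IgG 2 (797). Without antiCD47 1 there were 10, with Colec11 lower, where 1843 of all genes were higher and 1787 lower. Scaling by library totals alone moved the median of all genes to -0.19 and that of the 32 to 0.05, and gave 3 of the 32 higher (C3, Mbl1 and C5ar1) and 2 lower (Colec11 and Cr1l), where 428 of the 15472 genes were higher and 3153 lower.

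**Figure D1:**
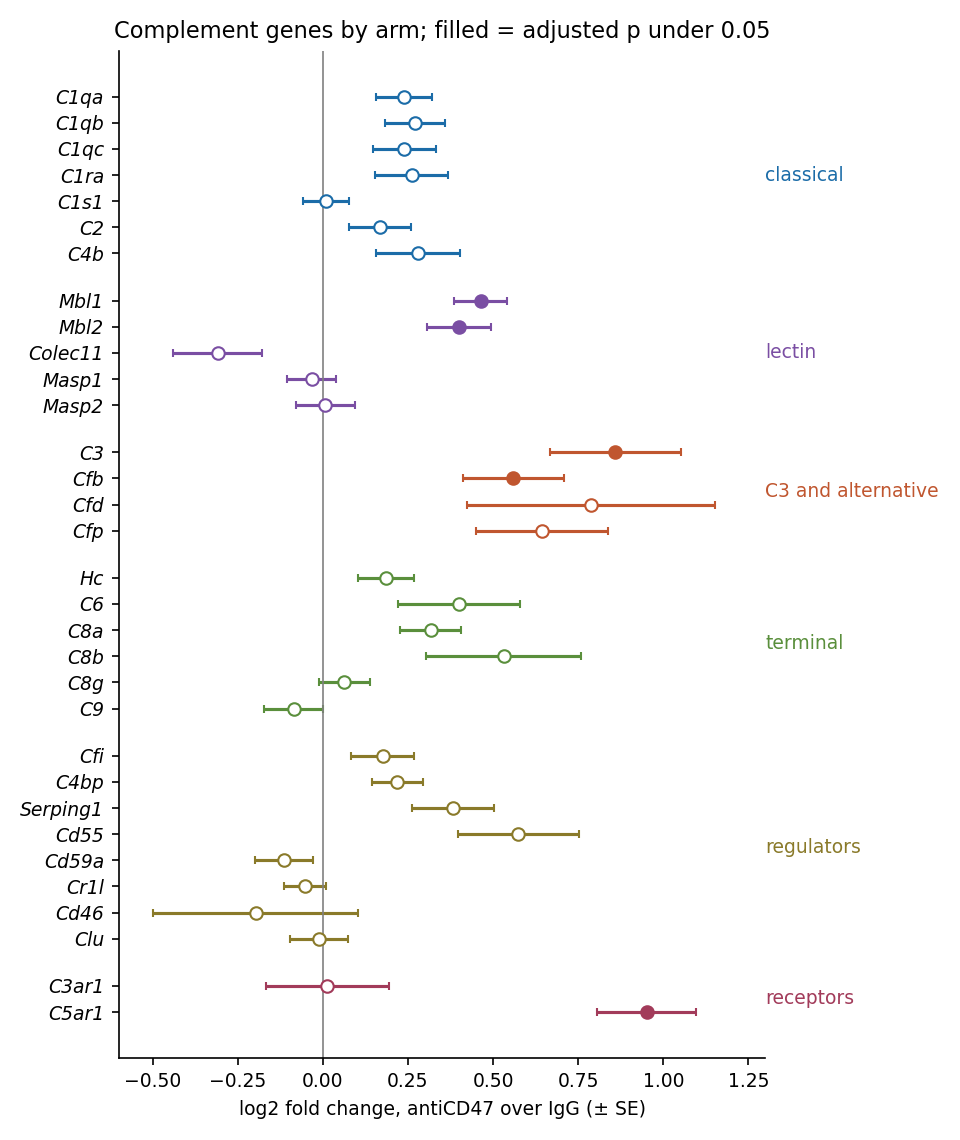
Log2 fold change of antiCD47 over IgG (x axis, with bars of 1 SE) for the 32 complement genes (y axis), grouped by arm. Filled points passed an adjusted p of 0.05 in edgeR; these were C3, Cfb, Mbl1, Mbl2 and C5ar1, and no gene passed on the lower side.

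The stretches of 250 bases before the start site of the called genes are shown for C3, Mbl1, Mbl2 and C5ar1, as RefSeq gives them on GRCm38.p6 (5′ to 3′ on the gene's strand); Cfb was not matched there. Of the 32 genes, 24 were matched. In the C3 stretch capitals mark a match to TTGCNNAA, the letters searched for C/EBP factors, known drivers of acute phase genes. In the Mbl1 and Mbl2 stretches capitals mark the longest run of bases that the 2 share. No motif searched was found in the C5ar1 stretch.
C3 (chr17:57228137-57228386, minus strand): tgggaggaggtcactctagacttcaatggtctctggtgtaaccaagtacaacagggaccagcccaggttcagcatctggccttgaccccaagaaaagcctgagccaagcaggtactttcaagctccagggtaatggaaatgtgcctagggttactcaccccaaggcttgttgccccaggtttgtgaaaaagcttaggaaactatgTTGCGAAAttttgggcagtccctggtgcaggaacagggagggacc
Mbl1 (chr14:41151206-41151455, plus strand): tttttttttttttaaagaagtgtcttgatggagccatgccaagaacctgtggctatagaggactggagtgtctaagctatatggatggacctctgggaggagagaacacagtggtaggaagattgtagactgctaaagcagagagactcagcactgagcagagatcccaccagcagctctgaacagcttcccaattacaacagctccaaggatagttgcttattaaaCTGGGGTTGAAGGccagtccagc
Mbl2 (chr19:30232678-30232927, plus strand): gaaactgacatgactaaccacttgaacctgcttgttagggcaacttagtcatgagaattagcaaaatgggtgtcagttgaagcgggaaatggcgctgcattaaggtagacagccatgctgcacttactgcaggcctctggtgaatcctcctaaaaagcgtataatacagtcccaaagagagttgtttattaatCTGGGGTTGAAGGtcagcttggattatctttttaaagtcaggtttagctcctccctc
C5ar1 (chr7:16259339-16259588, minus strand): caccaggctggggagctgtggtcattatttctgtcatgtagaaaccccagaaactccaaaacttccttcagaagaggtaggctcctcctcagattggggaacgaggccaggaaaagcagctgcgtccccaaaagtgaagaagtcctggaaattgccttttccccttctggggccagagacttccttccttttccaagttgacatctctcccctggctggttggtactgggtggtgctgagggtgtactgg

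The C/EBP match of C3 began 45 bases before the start. Such a match, on either strand, stood in 3 of the 24 complement stretches (C1s1, C9 and C3), or 12.5%, and in 9.55% of 27025 stretches of the same length, 1 per gene. TTCNNNGAA, the letters of a STAT site, stood in 12.5% (C8a, Masp2 and Colec11) and in 7.18% of all. An interferon response element, searched as GAAA, 2 bases of any kind and GAAA again, stood in 8.33% (Cd59a and Colec11) and in 3.04%. The run shared by Mbl1 and Mbl2 is 13 bases long and begins 23 and 57 bases before their starts, and 3 of the 27025 stretches hold it on either strand. These matches describe letters and show no binding.

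C3 and the alternative arm held the largest median change, 0.72 on the log2 scale over 4 genes, of which 2 rose and 2 did not pass. C3 stood at 3691, 5379, 3562 and 3934 CPM in IgG 1 to 4 and at 5302, 9702, 7567 and 7489 CPM in antiCD47 1 to 4. IgG 2 was the highest control library and lay just above antiCD47 1, so the groups overlapped; the remaining antiCD47 libraries were above every control. Its log2 fold change was 0.86 ± 0.19 (SE, n = 4 per treatment; edgeR adjusted p = 0.028), a 1.82-fold difference. Cfb, whose product joins C3b to form the alternative convertase, followed nearly the same order over the libraries. It stood at 967, 1239, 958 and 963 CPM in IgG and at 1178, 1883, 1622 and 1400 CPM in antiCD47, with IgG 2 again above antiCD47 1. The log2 fold change was 0.56 ± 0.15 (edgeR adjusted p = 0.0432).

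Cfd encodes factor D, or adipsin, the protease that cleaves factor B. It stood at 41.9, 36.3, 30.2 and 27.8 CPM in IgG and at 81.1, 79.1, 55.5 and 19.2 CPM in antiCD47. antiCD47 1 to 3 were above all controls and antiCD47 4 was the lowest of the 8. The value of 0.79 ± 0.36 did not pass (edgeR adjusted p = 0.167). Leaving out antiCD47 4, the lowest library, had to raise it, to 1.08 (edgeR adjusted p = 0.019), so that fit is no support. With any other library left out the edgeR adjusted p was 0.208 to 0.35. Fat cells are a known source of adipsin, and of 10 adipocyte genes Adipoq had 6 counts and Plin1 9 over the 8 libraries and Lep none. The summed level of that list, led by Pnpla2, Cidea and Fabp4, was 208 to 287 CPM in IgG and 183 to 292 CPM in antiCD47, and its part in the Cfd values was not tested. Cfp, the gene of properdin, which steadies the alternative convertase and is made by leukocytes, ranged from 15.7 to 25.5 CPM in IgG and from 22 to 38.1 CPM in antiCD47 (log2 0.64 ± 0.19, edgeR adjusted p = 0.0603).

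**Figure D2:**
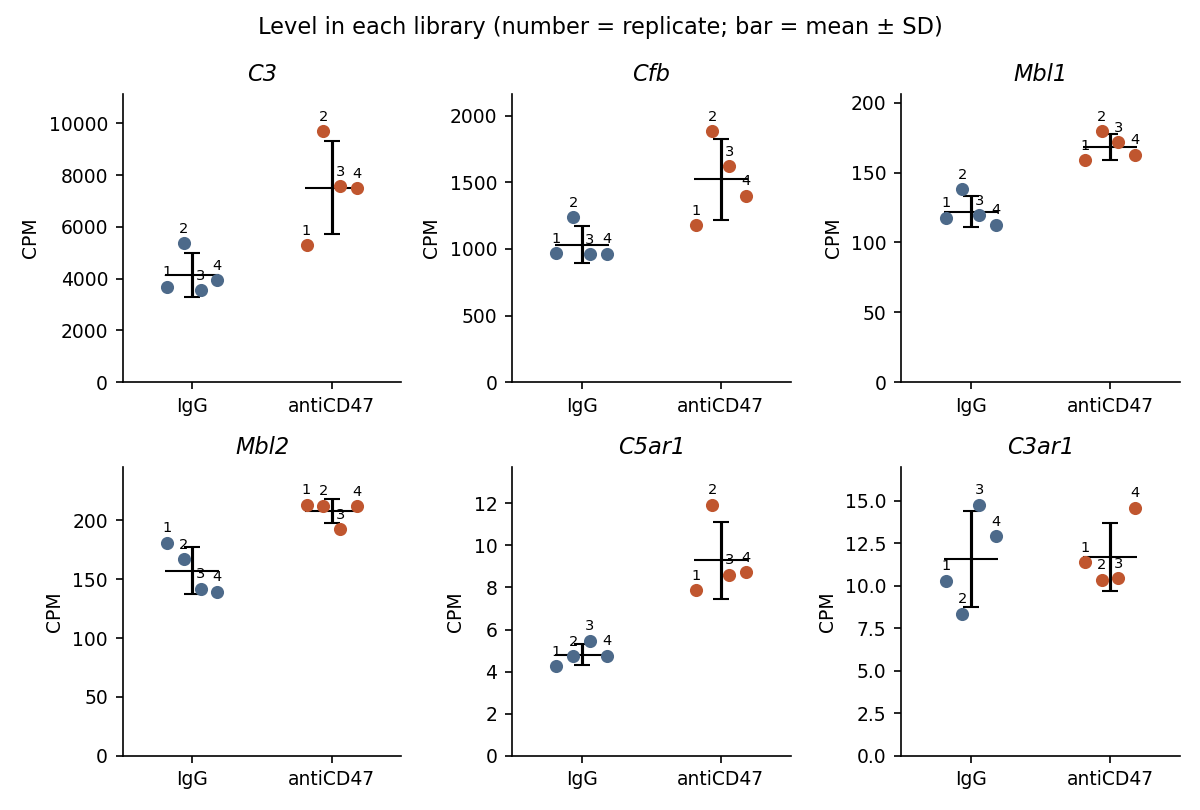
CPM (y axes, from 0) of C3, Cfb, Mbl1, Mbl2, C5ar1 and C3ar1 in each library, with the replicate number beside each point and black bars for the mean ± SD of 4 libraries. Mbl1, Mbl2 and C5ar1 did not overlap between treatments, C3 and Cfb overlapped through IgG 2 and antiCD47 1, and C3ar1 had the same level in both (11.6 and 11.7 CPM).

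In the lectin arm both mannose-binding lectin genes rose, and neither protease gene nor Colec11 passed. Mbl1 stood at 118, 138, 120 and 113 CPM in IgG 1 to 4 and at 159, 180, 172 and 163 CPM in antiCD47 1 to 4, with no overlap (log2 0.46 ± 0.08, edgeR adjusted p = 0.0164). Mbl2 stood at 181, 167, 142 and 139 CPM in IgG and at 213, 212, 192 and 212 CPM in antiCD47, also without overlap (log2 0.40 ± 0.09, edgeR adjusted p = 0.0309). These 2 changes were small, 1.379-fold and 1.319-fold, and each was wider than the spread within a treatment. Masp1 and Masp2, the proteases that the lectins activate, had values of -0.03 ± 0.07 and 0.01 ± 0.09 (edgeR adjusted p = 0.778 and 0.961). Masp1 lay between 143 and 147 CPM in IgG and between 123 and 152 CPM in antiCD47, and Masp2 between 164 and 189 CPM and between 152 and 199 CPM. Colec11, a collectin chain, stood at 50.1 to 61.5 CPM in IgG and at 35.3 to 55.6 CPM in antiCD47 (log2 -0.31 ± 0.13, edgeR adjusted p = 0.138).

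None of the 7 classical genes passed in edgeR with TMM scaling and all 8 libraries, and all 7 had values above 0. C1qb passed in the authors' deposited table (adjusted p = 0.0389), and DESeq2 called C1qb (0.0331) and C1qa (0.0481). With scaling by library totals alone the edgeR values of C1qb and C1qa fell to 0.0806 and 0.0464 (edgeR adjusted p = 0.594 and 0.756). The 3 chains of C1q, each encoded by its own gene, gave nearly equal values. C1qa stood at 86.6, 79.8, 102.5 and 98.3 CPM in IgG and at 108, 105.2, 111.9 and 107.9 CPM in antiCD47 (log2 0.24 ± 0.08, edgeR adjusted p = 0.0859). C1qb stood at 81.1, 79, 101.3 and 92.5 CPM and at 101.5, 101.9, 113.1 and 110.7 CPM (log2 0.27 ± 0.09, edgeR adjusted p = 0.0719). Their groups did not overlap, though IgG 3 came within a few CPM of the lowest antiCD47 library. C1qc (0.24 ± 0.09) overlapped and had an edgeR adjusted p of 0.111. C1ra and C1s1, the proteases of the C1 complex, were at 0.26 ± 0.11 and 0.01 ± 0.07 (edgeR adjusted p = 0.126 and 0.934). C4b, the C4 gene, ranged from 920 to 1407 CPM in IgG and from 1250 to 1467 CPM in antiCD47 (log2 0.28 ± 0.12, edgeR adjusted p = 0.152), and C2, which joins it in the classical convertase, was at 0.17 ± 0.09 (edgeR adjusted p = 0.232). C4a, a near-identical copy of C4b, stood at 13.6 to 19.5 and 17.5 to 38 CPM, and reads of the 2 copies may be split uncertainly. The copies C1rb and C1s2 had 2 and 7 counts over the 8 libraries.

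None of the 6 terminal genes passed in the same fit. C8a, the alpha chain of C8, came nearest. It stood at 447, 412, 405 and 399 CPM in IgG and at 497, 584, 449 and 541 CPM in antiCD47, without overlap (log2 0.32 ± 0.09, edgeR adjusted p = 0.0511). Its adjusted p was 0.00766 in the authors' deposited table. With scaling by library totals alone its edgeR value was 0.13 (edgeR adjusted p = 0.275). C8b, the beta chain, had a value of 0.53 ± 0.23 with a wider spread, and antiCD47 2 stood at 124 CPM and the other libraries at 46.9 to 80.9 CPM (edgeR adjusted p = 0.141). Without antiCD47 2 the values of C8b and C8a were 0.26 and 0.25. C6 was at 0.40 ± 0.18 and Hc, the C5 gene, at 0.18 ± 0.08 (edgeR adjusted p = 0.156 and 0.15). C8g, a lipocalin chain of C8, was at 0.06 ± 0.08 and C9, which forms the ring of the pore, at -0.09 ± 0.09 (edgeR adjusted p = 0.594 and 0.52).

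None of the 8 regulators passed in the fit with TMM scaling and all 8 libraries. The authors' deposited table lists C4bp (adjusted p = 0.00707), Cd55 (0.0145) and Serping1 (0.0283) past 0.05, and DESeq2 called the same 3 genes. Over the 18 alternatives (edgeR, voom and DESeq2 fits) their adjusted p ran up to 0.739, 0.193 and 0.18. Among the soluble regulators, C4bp, a cofactor that holds back the classical convertase, stood at 497, 576, 508 and 479 CPM in IgG and at 594.4, 625, 594.2 and 585 CPM in antiCD47, without overlap (log2 0.22 ± 0.07, edgeR adjusted p = 0.0813). Serping1, the C1 inhibitor, ranged from 530 to 710 CPM and from 665 to 934 CPM (log2 0.38 ± 0.12, edgeR adjusted p = 0.0689). Cfi, the protease that cleaves C3b and C4b, was at 0.18 ± 0.09, and Clu, or clusterin, which binds terminal complexes, at -0.01 ± 0.09 with 1593 to 1947 CPM over the 8 libraries. On cell membranes Cd55, which speeds the decay of convertases, went from 10.6 ± 2.30 to 15.7 ± 2.86 CPM (SD; log2 0.57 ± 0.18, edgeR adjusted p = 0.0639), while Cd59a, which blocks pore assembly, was at -0.11 ± 0.09 and Cr1l, the rodent C3b regulator known as Crry, at -0.05 ± 0.06. Cd46 was listed at 0.225 to 0.546 CPM, and its value of -0.20 ± 0.30 leaves its direction undetermined.

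Of the 2 anaphylatoxin receptors, C5ar1 rose and C3ar1 did not pass. C5ar1 stood at 4.25, 4.73, 5.47 and 4.75 CPM in IgG and at 7.87, 11.9, 8.60 and 8.73 CPM in antiCD47, with no overlap. Its log2 fold change of 0.95 ± 0.14 (edgeR adjusted p = 0.016), a 1.93-fold difference, had the largest size among the 32 genes and it was still called in 6 of the 8 fits that left out a library. C3ar1 stood at 10.3, 8.35, 14.8 and 12.9 CPM in IgG and at 11.4, 10.4, 10.5 and 14.6 CPM in antiCD47 (log2 0.01 ± 0.18, edgeR adjusted p = 0.969).

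Over the whole set, 7 of the 32 genes (21.9%) had all antiCD47 libraries above all IgG libraries, against 9.51% of all genes tested, and 0 had all below, against 10.1%. The 7 were C1qa, C1qb, Mbl1, Mbl2, C8a, C4bp and C5ar1. IgG 2 was the highest control library in 16 of the 32 genes, antiCD47 1 the lowest antiCD47 library in 13 and antiCD47 2 the highest in 14. The same shares over all genes tested were not counted here, so these counts may describe the libraries rather than complement genes. Compared per kilobase of exon (CPM divided by the summed exon length, GENCODE M21), the mean IgG level was highest for Clu (949), C3 (806) and Cfb (375) and lowest for Cd46 (0.0643), C5ar1 (1.87) and C3ar1 (2.69). In antiCD47, C3 (1463) stood above Clu (941).

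**Figure D3:**
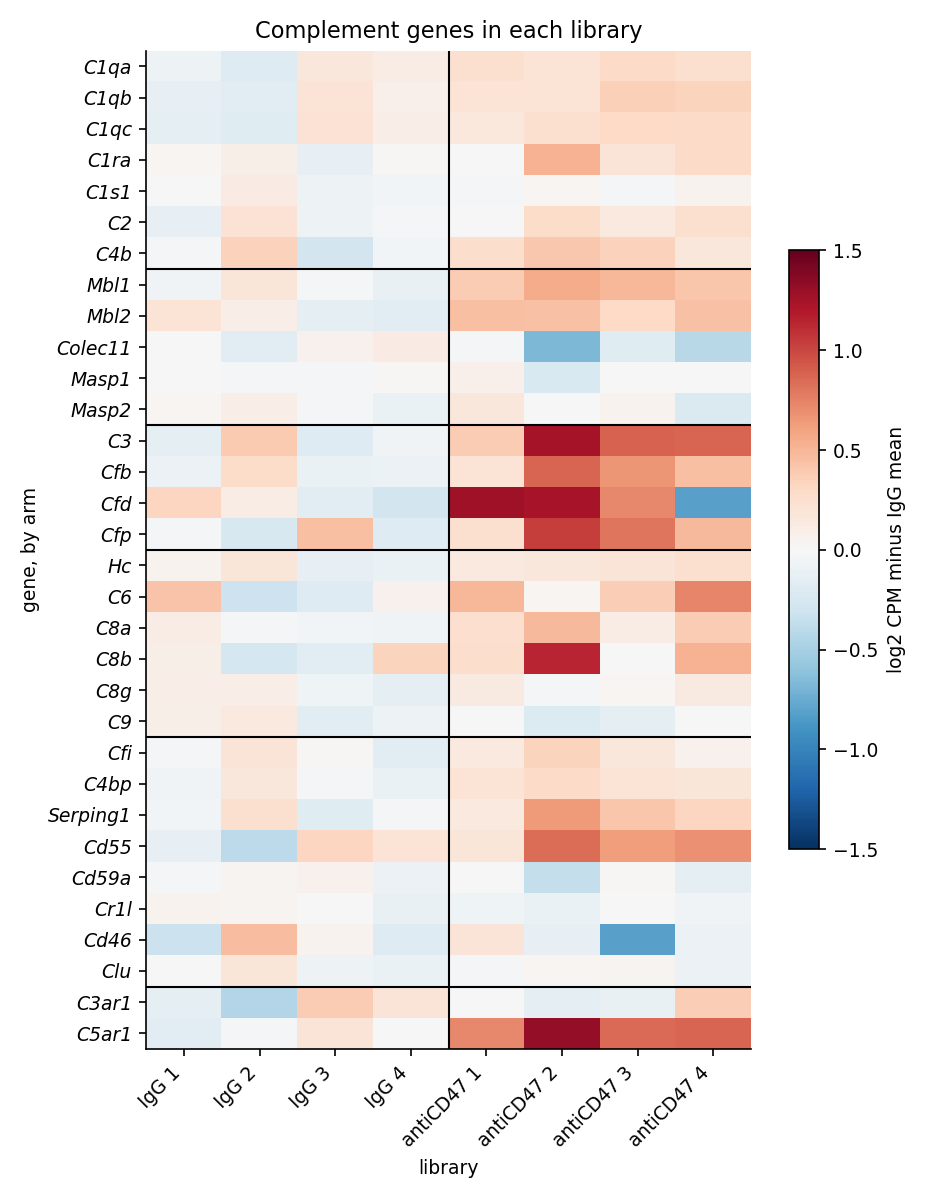
Log2 CPM minus the IgG mean (colour) of the 32 genes (rows, by arm) in each library (columns). C3, Cfb, Mbl1, Mbl2 and C5ar1 lie above 0 in each antiCD47 library, as do other rows such as C1qa and Cd55. Among controls they reach 0.40 (C3 in IgG 2), 0.27 (Cfb in IgG 2), 0.21 (Mbl2 in IgG 1), 0.20 (C5ar1 in IgG 3) and 0.18 (Mbl1 in IgG 2). Clu, Masp1 and Cr1l lie between -0.23 (Masp1 in antiCD47 2) and 0.19 (Clu in IgG 2).

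Ratios of counts within a library do not depend on how libraries are scaled, and 11 pairs of genes were compared in that way. The pairs join functionally linked complement genes, except C1qa to Clec4f, a Kupffer cell marker. All pairs were chosen with the values in view, so no test is given. The log2 ratio of C5ar1 to C3ar1 was -1.24 ± 0.29 in the control libraries and -0.34 ± 0.41 after antiCD47 (mean ± SD of 4), with no overlap. The ratio of Mbl1 to Masp1 moved from -0.25 ± 0.14 to 0.25 ± 0.21 and that of Mbl2 to Masp2 from -0.17 ± 0.13 to 0.23 ± 0.19, both without overlap, while Mbl1 to Mbl2 stayed at -0.36 ± 0.17 and -0.30 ± 0.12. The counts of C3 stood higher against those of Hc (3.07 ± 0.18 and 3.73 ± 0.35) and of Cfi (3.19 ± 0.19 and 3.87 ± 0.30), both without overlap. Cfb stood higher against C2, its classical counterpart (3.83 ± 0.06 and 4.21 ± 0.21), without overlap. The ratios of C8a to C8b and of C1ra to C1s1 overlapped.

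**Figure D4:**
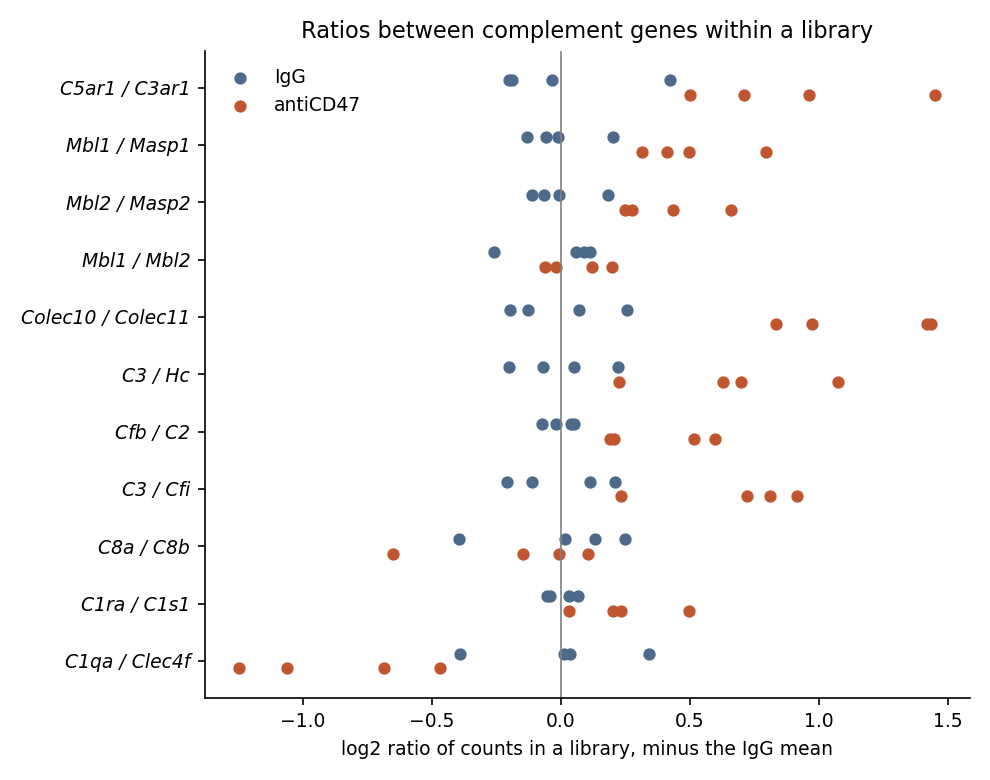
Log2 ratio of counts of 2 genes within a library, minus the mean of the IgG libraries (x axis), for 11 pairs (y axis); each point is a library, blue for IgG and orange for antiCD47. The treatments did not overlap for 8 pairs, with C1qa to Clec4f lower in antiCD47 and the 7 others higher.

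Beyond the 32, a list of 29 other genes of the system was read in the same fit; 24 were tested, 7 rose and 0 fell, where 5.44% of all genes were called higher and 5.4% lower, with a median of 0.28. Among those that rose, Colec10, the partner chain of Colec11, increased from 18.1 ± 2.93 to 32.1 ± 2.80 CPM (log2 0.83 ± 0.12, edgeR adjusted p = 0.0147). Its log2 ratio to Colec11 went from -1.66 ± 0.20 to -0.49 ± 0.31, without overlap. Fcna, a lectin of Kupffer cells that starts the lectin arm, rose by 1.39 ± 0.22, and the pentraxin genes Apcs (1.46 ± 0.29) and Crp (1.40 ± 0.28), whose products bind C1q, rose with it. Crp stood at 245 to 290 CPM in IgG and at 410, 1172, 705 and 511 CPM in antiCD47. Itgam, a chain of the receptor for cleaved C3b on myeloid cells, rose by 0.90 ± 0.21 and Susd4, a membrane inhibitor, by 0.91 ± 0.25 (edgeR adjusted p = 0.0302 and 0.0456). Over the 18 alternatives Susd4 lost its call in 9 (adjusted p up to 0.152) and Itgam in 6 (up to 0.0898), and Apcs and Crp did so in 4 each and Colec10 and Fcna in 2 each. Cpn2, a subunit of the carboxypeptidase that inactivates anaphylatoxins, was at 0.27 ± 0.09 (edgeR adjusted p = 0.071).

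Other transcripts moved with these genes, and the counts of the lists stand against 5.44% of all genes called higher and 5.4% lower. Of 17 acute phase genes (Apcs is also among the 29), 15 were higher, and their summed level was 14870 to 28400 CPM in IgG and 33170 to 61800 CPM in antiCD47, highest among controls in IgG 2, where C3 and Cfb were highest too. Kupffer cell markers were higher in 7 of 12 (Fcna and Vsig4 are also among the 29), with a sum of 342 to 575 CPM and 574 to 930 CPM and Clec4f, the defining lectin, at 1.09 ± 0.23. The markers of that list that did not pass were Clec1b (0.12 ± 0.15), Csf1r (0.25 ± 0.13), Slc40a1 (0.36 ± 0.14), Adgre1 (0.42 ± 0.20) and Vsig4 (0.71 ± 0.24), beside 0.24 ± 0.08 for C1qa. The log2 ratio of C1qa to Clec4f, 1 of the markers that rose, went from 1.08 ± 0.30 to 0.21 ± 0.35, without overlap. Neutrophil markers were higher in 10 of the 10 tested (12 listed), with sums of 7.40 to 9.84 CPM and 18 to 37.8 CPM. Ly6g and Camp, not tested, had 15 and 43 counts over the 8 libraries. Several of the 10 were near the floor in IgG, such as Ngp (0.0519 to 0.21 CPM, and 0.255 to 0.944 CPM in antiCD47). Genes this low can pass the filter on low counts through the antiCD47 libraries alone, so the share called among those tested is not a result by itself. In whole liver, more cells of a type and more RNA per cell cannot be told apart, and the part of these lists in the values of C3, C1q or C5ar1 was not tested.

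**Figure D5:**
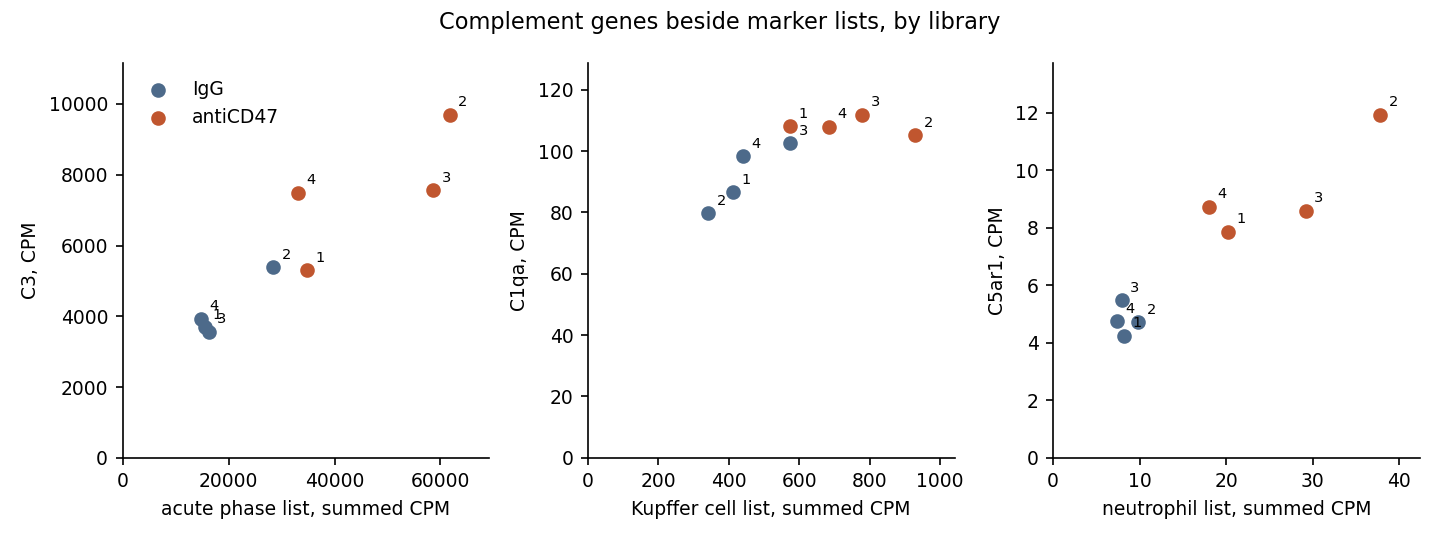
CPM of C3, C1qa and C5ar1 (y axes) against the summed CPM of the acute phase, Kupffer cell and neutrophil lists (x axes), with each point a library and its replicate number. In the left panel IgG 2 (28400 and 5379 CPM) sits beside antiCD47 1 (34830 and 5302 CPM); in the middle panel C1qa spans 79.8 to 111.9 CPM while the Kupffer cell sum spans 342 to 930 CPM.

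Lists of other liver cells did not run in 1 direction. Markers of recruited macrophages and monocytes were higher in 4 of 12 (Itgam, Chil3, Plac8 and Cd14), with sums of 168 to 253 CPM and 180 to 241 CPM. The list was split, with a median of 0.03. Cx3cr1 (-0.96 ± 0.34), Trem2 (-0.36 ± 0.27), Gpnmb (-0.32 ± 0.37), Cd9 (-0.27 ± 0.11), Ccr2 (-0.18 ± 0.12) and Lgals3 (-0.18 ± 0.16) were below 0 and did not pass. Ly6c2 (0.69 ± 0.31) and Cd68 (0.25 ± 0.14) were above 0 and did not pass. Markers of stellate cells and fibroblasts, which also make C1r, C1s and C1 inhibitor, were lower in 5 of 12, and bile duct markers in 9 of 10. C7, a terminal component that fibroblasts make, stood at 2 to 4.11 CPM in IgG and at 1.37 to 2.39 CPM in antiCD47 (log2 -0.65 ± 0.26, edgeR adjusted p = 0.116). None of 12 sinusoidal endothelial, 8 B cell or 8 T and NK cell markers passed, and 1 of 11 hepatocyte genes was called higher, with a median of 0.05 over the list. In the B cell list Ighm came near the threshold (log2 1.21 ± 0.34, edgeR adjusted p = 0.0509), while the median of the list was -0.003. Its summed level was 13.1 to 34.7 CPM in IgG and 33 to 65.8 CPM in antiCD47.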

How the data were processed

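RNA of whole liver was sequenced from 8 libraries with Illumina TruSeq chemistry, per the labels' protocols. Estimated counts, all of them whole numbers, were deposited by the authors for each Ensembl gene without normalization; 27899 of 54309 genes had no count. Salmon 1.3.0, DESeq2 1.32.0 and the build GRCm39 are named in the submitters' processing notes, with no role stated. The authors' deposited comparison table gives, per the file headers, a mean normalized signal, a log2 fold change with an error score, p-values and a rank score; its adjusted p-values and signs were used, and no source used here states its reference group. Columns were matched to samples by title, and 0 were left unused.

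Genes were filtered with filterByExpr, scaled with TMM and compared with glmQLFit and glmQLFTest in edgeR 4.0.16 (R 4.3.3), without covariates, with Benjamini-Hochberg adjustment over 15472 genes. The SE is the log2 fold change divided by the root of F. The common dispersion was 0.028. Alternatives used DESeq2 1.42.0, limma 3.58.1 (voom), other scalings, filters and thresholds, the replicate block and leaving out libraries; leaving out both libraries numbered 2 was chosen after seeing the data. No 2 libraries of a treatment agreed within sampling noise (smallest chi-square per degree of freedom 25.963). Figures were drawn with matplotlib 3.10.9.

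The genes and lists were chosen with earlier results of these data known. All 32 genes are named, with library values where a gene was called or the treatments did not overlap. Of the other complement genes, those called and the 4 next by p were to be named, and some of these, and a gene of another list, are not reported here; C4a, C7 and the copies at a few counts were added after their values were seen. Promoter stretches are shown for the called gene with the largest change in its arm, and Mbl2 was added beside Mbl1. Promoters and exon lengths are of GRCm38, an older build than that of the counts, and were used for sequence and length only. The depth of 43691472 to 55477484 counts limits precision for genes at a few CPM or less.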

Additional observations from a re-analysis of the deposited data

Results flagged for a closer look

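Among 86 groups of 4 libraries (the 32 genes and the 11 other complement genes named by rule, in each treatment), 4 held a library set apart from the others by more than Dixon's critical value for the ratio of gap to range. Chance alone gives about 1 in 20. Mbl2 was lowest in antiCD47 3, at 192.4 CPM. Cfb was highest among controls in IgG 2, at 1239 CPM, and so was Cpn2, at 295 CPM. Susd4 was highest among controls in IgG 1, at 11.02 CPM.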

How the results depend on the processing

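The 5 calls held in these fits as follows. C5ar1 was lost without IgG 4 and without antiCD47 3 (adjusted p up to 0.0583 over 18 alternatives); Mbl1 also without IgG 1 and IgG 3 (up to 0.063); Mbl2 without IgG 3, IgG 4, antiCD47 2, antiCD47 3 and both libraries numbered 2, and with library totals (up to 0.0892); C3 without IgG 1, IgG 3, IgG 4, antiCD47 2 or antiCD47 3 (up to 0.0845); and Cfb without those and antiCD47 4, and with library totals (up to 0.119). All 5 kept a value above 0 in each of the 18. Genes higher among the 32 numbered 3 with library totals, 12 by DESeq2, 12 by voom with quality weights, 9 with the replicate block, 12 at an adjusted p of 0.1, 2 at 1.5-fold or more, and 0 to 10 with a library left out; genes lower numbered 2 with library totals, and 0 to 1 with a library left out. With TMM scaling and all 8 libraries edgeR called 0 of the 32 lower, with 1 at an unadjusted p under 0.05, and DESeq2 called 0. Over all genes, 842 were higher and 836 lower; the counts were 428 and 3153 with library totals, 634 and 969 with upper quartile scaling, 1694 and 1452 by DESeq2, 2133 and 2198 with quality weights, 1214 and 1211 with the replicate block, 1850 and 1724 at an adjusted p of 0.1, 397 higher at 1.5-fold or more, 516 lower without both libraries numbered 2, and 2 to 1843 higher and 0 to 1787 lower with a library left out. Of the other complement genes, Colec10 and Fcna lost their calls without IgG 4 or antiCD47 3, Apcs and Crp also without IgG 1 or IgG 3, Itgam also without antiCD47 2 or both libraries numbered 2, and Susd4 without any library but IgG 1 and antiCD47 4, without both numbered 2, and with upper quartile scaling or quality weights. The TMM factors were 1.03 to 1.11 in IgG and 0.895 to 0.989 in antiCD47 libraries, without overlap. Scaling by library totals alone leaves these factors out, which lowers the value of every gene in antiCD47 against IgG. The cause of the other shifts was not tested.

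Genes that did not pass changed sign near 0. With library totals C1s1 was at -0.17, C2 at -0.0191, Masp2 at -0.18, C8g at -0.12, Cfi at -0.0123 and C3ar1 at -0.18; with upper quartile scaling C1s1 was at -0.0525, Masp2 at -0.0541 and C3ar1 at -0.053. With quality weights Clu was at 0.0258 and C3ar1 at -0.0618; without both libraries numbered 2, Masp1 was at 0.0227, C9 at 0.0032, Clu at 0.0402 and C3ar1 at -0.0621. With a library left out, C1s1 ran from -0.0094 to 0.0549, Masp1 from -0.0696 to 0.0287, Masp2 from -0.0504 to 0.0808, Clu from -0.0454 to 0.0548 and C3ar1 from -0.12 to 0.16. Libraries that share a number had deviations correlated at -0.0232 to 0.157, and libraries of different number at -0.162 to 0.161. These ranges overlap and cannot decide whether a number marks a pair. The labels do not say that it does, so the numbers were not taken as pairs in the main fit.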

Other observations

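Of 15 genes of IL-6 type signalling, which drives acute phase genes in hepatocytes, 13 were tested and 4 rose (5.44% of all genes were called higher), among them the shared receptor chain Il6st (0.82 ± 0.14), the kinase gene Jak1 (0.52 ± 0.13) and Stat3 (1.07 ± 0.26). Stat3 stood at 170 CPM in IgG 2 and at 79.3 to 86 CPM in the other controls, and at 176 to 273 CPM in antiCD47. The feedback gene Socs3 (0.20 ± 0.47), Cebpb (0.14 ± 0.21) and Cebpd (-0.13 ± 0.22) did not pass (edgeR adjusted p = 0.797, 0.686 and 0.724). Socs3 stood at 30.4 CPM in IgG 2 and at 7.71 to 8.37 CPM in the other controls, and at 8.93 to 23.3 CPM in antiCD47. Il6 and Osm had 19 and 52 counts over the 8 libraries.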
